A study of Mus musculus with 2 samples.

Results

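*Mrgpra6* and *Mrgpra9* are 2 of the 32285 genes counted in single nuclei of the mouse brain after subarachnoid haemorrhage (SAH), and most of their counts lay in the oligodendrocyte-like nuclei of the SAH library. They were chosen by their level in those nuclei, where they stood among the genes with the largest ratios of SAH over Normal, so that ratio is given here as a description without a test. The samples were 2 libraries of single nuclei, 1 named Normal and 1 named SAH, from male mice of 6 to 8 weeks per the labels. The study's methods name the strain as C57BL/6J and give an older age range, so the age is not settled. Each library held the pooled tissue of 3 mice, taken from the hemisphere on the injured side or the same side of a Normal brain, between 2.34 mm in front of and 2.18 mm behind bregma. SAH was made by puncturing a vessel from within with a filament and the tissue was taken 12 h later. The study's methods describe the control as sham, and the sources used here do not settle whether the Normal mice were operated on. With 1 library per condition no test was possible. All intervals are 95% intervals for counting error alone, and the spread between mice or libraries is not known.

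The Mas-related G protein-coupled receptors (Mrgpr) are a family of rhodopsin-like receptors best known from the small sensory neurons of the dorsal root and trigeminal ganglia, where several of them mediate itch. They couple mainly to Gq and Gi proteins, and through phospholipase C and intracellular calcium they open channels such as TRPA1. In the mouse the A subfamily is expanded into a run of near copies on chromosome 7, and Mrgprb2 is the receptor through which mast cells respond to basic peptides. Oligodendrocytes form the myelin sheaths of the brain and are not among the cells for which these receptors are best known.

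Both genes lie on the minus strand of chromosome 7 in GRCm38, the build of the files. *Mrgpra6* (ENSMUSG00000052303) spans 47185707 to 47204920 and *Mrgpra9* (ENSMUSG00000074111) spans 47234861 to 47252848 in GENCODE vM21, so that the start of *Mrgpra9* lies 47.9 kb from that of *Mrgpra6*. GENCODE annotates both as protein coding, with 813 coding bases in the longest *Mrgpra6* transcript and 996 in that of *Mrgpra9*, while RefSeq lists *Mrgpra6* as a transcribed pseudogene. RefSeq gives mAde2R, a name of a mouse adenine receptor, as a synonym of *Mrgpra9*. Over the 813 coding bases that could be aligned, 732 (90.0%) were identical. The first 150 bases of the second exon, which is coding in both genes, are shown because they let a reader see how close these copies are. They lie on the minus strand at chr7:47189288-47189437 and chr7:47235757-47235906 (sequence from GENCODE), read 5′ to 3′, and the 21 bases that differ are in capitals.

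Mrgpra6: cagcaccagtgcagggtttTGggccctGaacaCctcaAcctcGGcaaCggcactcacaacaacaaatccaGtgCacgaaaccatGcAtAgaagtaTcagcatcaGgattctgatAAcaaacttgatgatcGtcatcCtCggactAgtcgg
Mrgpra9: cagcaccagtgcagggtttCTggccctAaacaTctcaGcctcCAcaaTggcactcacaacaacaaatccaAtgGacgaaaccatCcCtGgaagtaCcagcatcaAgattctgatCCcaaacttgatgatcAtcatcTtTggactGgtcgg

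The longest exact run that the spliced transcripts of the pair shared was 72 bases, and no window of 91 bases was common to both. An exonic read longer than this run therefore differs between them by at least 1 base. Reads of nuclei fall largely in introns, whose sequences were not compared, and how far reads were shared between the copies was not tested.

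In the SAH library the nuclei with oligodendrocyte markers held 348 UMIs of *Mrgpra6* and 366 of *Mrgpra9*, against 3 UMIs of each gene in the Normal library. UMIs (unique molecular identifiers) count single RNA molecules. Nuclei were placed in classes by the summed share of marker genes, and the class called oligodendrocyte-like held 1748 Normal nuclei (14.4% of those kept) and 3570 SAH nuclei (19.6%). All 12 oligodendrocyte markers were detected in it, their median share was 276.6 UMIs per 10000 in Normal and 162.4 in SAH, and the markers *Prr5l* and *Aspa* were among its 10 leading genes in each library. In the SAH library 329 of these nuclei (9.22%) lay between the cut of 50 UMIs per 10000 and 2 times that cut, against 4 in Normal (0.229%).

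*Mrgpra6* stood at 0.798 CPM (UMIs of the gene per 1000000 UMIs of the class; interval 0.164 to 2.33) in Normal and at 40.0 CPM (35.9 to 44.4) in SAH oligodendrocyte-like nuclei. *Mrgpra9* stood at 0.798 CPM (0.164 to 2.33) in Normal and at 42.0 CPM (37.8 to 46.6) in SAH. The 2 genes thus reached levels whose intervals overlapped in each library. The log2 ratio of SAH over Normal was 5.65 (4.09 to 7.93) for *Mrgpra6* and 5.72 (4.16 to 8.00) for *Mrgpra9*. Summed, they went from 6 to 714 UMIs, a level 51.4-fold higher in SAH (23.5 to 140.5). Among 11467 genes that passed a minimum of 50 UMIs here, 940 (8.2%) were at least 2-fold higher in SAH, 697 (6.08%) were at least 2-fold lower and 26 (0.227%) were at least 16-fold higher. Both genes were among those 26, which follows from how they were chosen. *Mrgpra9* ranked 2 and *Mrgpra6* ranked 4 by ratio among the 11462 genes seen in both libraries. These high ranks also follow from how the genes were chosen. Each gene reached the minimum of 50 UMIs through SAH alone, and the intervals of both ratios are wide. Nothing is therefore read from the ranks.

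**Figure D1:**
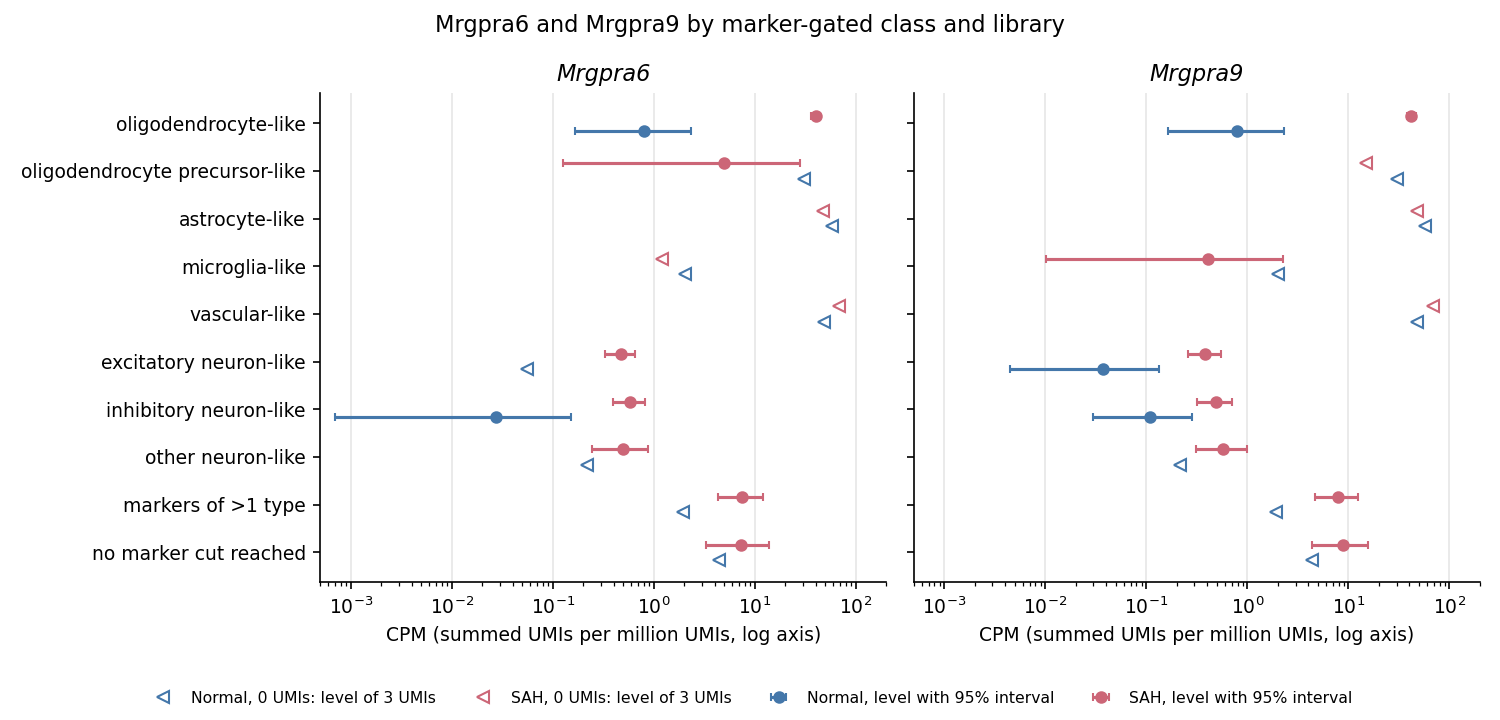
Level of Mrgpra6 (left) and Mrgpra9 (right) in each marker-gated class, in CPM on a log axis, for Normal (blue) and SAH (red), 1 library each. Dots are summed levels with exact 95% Poisson intervals and open triangles mark the level of 3 UMIs for classes with 0 UMIs. The SAH oligodendrocyte-like nuclei stand at 40.0 and 42.0 CPM, the Normal ones at 0.798 CPM for both genes.

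Most oligodendrocyte-like nuclei of the SAH library still had no UMI of either gene. A UMI of *Mrgpra6* was found in 305 nuclei (8.54%; exact binomial interval 7.65 to 9.51), of *Mrgpra9* in 316 (8.85%; 7.94 to 9.83) and of either in 549 (15.4%; 14.2 to 16.6), against 6 of 1748 nuclei (0.343%; 0.126 to 0.746) in Normal. Where a gene was seen it was mostly seen once. Of the nuclei with *Mrgpra6*, 265 had 1 UMI and the highest held 3, and of those with *Mrgpra9*, 276 had 1 UMI and the highest held 4. The share with a UMI moved with the depth of the nucleus. In 5 depth groups of about equal size it went from 7.68% at a median of 1376 UMIs to 25.3% at a median of 3652 UMIs, while the level moved less, from 63.9 CPM (48.6 to 82.7) to 87.2 CPM (76.9 to 98.5). With all nuclei brought down to 1000 UMIs, and 157 SAH and 150 Normal nuclei left out as shallower, a UMI of either gene was found in 249 of 3413 SAH nuclei (7.30%; 6.45 to 8.22) and in 3 of 1598 Normal nuclei (0.188%; 0.0387 to 0.548).

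Outside the oligodendrocyte-like class both genes were scarce. Of the 921 UMIs of the pair in the SAH nuclei kept, 77.5% lay in that class. The other named nuclei of the SAH library together held 152 UMIs at 0.955 CPM, and the oligodendrocyte-like level was higher by 6.42 on the log2 scale (6.17 to 6.69). With the nuclei of highest Scrublet doublet scores removed, 55 UMIs remained in the other named nuclei and the value was 7.63 (7.23 to 8.05). A ratio of at least 16-fold in that direction was reached by 381 of 19340 genes (1.97%). Among the SAH classes the summed level was 0.852 CPM (0.660 to 1.08) in excitatory neuron-like nuclei, 1.07 CPM (0.811 to 1.37) in inhibitory neuron-like nuclei and 1.07 CPM (0.685 to 1.59) in other neuron-like nuclei, and these 3 neighbours had overlapping intervals. The 1297 microglia-like nuclei held 1 UMI, and the 1006 Normal ones held 0. Oligodendrocyte precursor-like nuclei, of which only 43 were named in SAH, held 1 UMI, at 4.98 CPM with an interval from 0.126 to 27.8. The 21 astrocyte-like and 30 vascular-like nuclei of SAH held 0 UMIs. There 3 counts would be a summed level of 47.3 CPM and 68.5 CPM, and the exact intervals reach 58.2 CPM and 84.2 CPM. A lower level in these classes would thus not have been detectable.

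The UMIs in SAH neurons lay within the range of the oligodendrocyte markers there. In Normal neurons the value of *Mrgpra9* lay above that range, but it rests on too few UMIs to be told apart from it. In the SAH library *Mrgpra6* in neuron-like nuclei was at 1.28% of its oligodendrocyte-like level and *Mrgpra9* at 1.06%, and the 12 oligodendrocyte markers were at a median of 1.097% (0.841% for *Aspa* to 11.5% for *Cnp*). In Normal *Mrgpra9* in neurons was at 7.21% of its oligodendrocyte-like level, from 6 UMIs against 3, and *Mrgpra6* at 1.20%, from 1 UMI, where the markers were at a median of 0.538% with a highest value of 4.28%. These 12 markers also set the classes, which can lower their level in neurons. *Opalin*, *Anln* and *Hapln2*, not used for that, were at 1.13%, 1.54% and 1.28% in SAH and at 0.469%, 0.758% and 0.560% in Normal. Of the 12528 SAH neuron-like nuclei 7 held both *Mrgpra6* and *Mrgpra9*, where the product of the shares was 0.384. A UMI of either gene was found in 1.05% of the SAH neuron-like nuclei, whose 3 classes had median depths of 9999 to 12514 UMIs against 2201 in the oligodendrocyte-like class, and in 0.145% (18 of 12402) after thinning to 1000 UMIs. Neuron-like nuclei held 150 UMIs of the pair in SAH and 7 in Normal, and 9.69% of the 19935 genes past the same minimum in neurons were at least 2-fold higher in SAH. Both genes were among them, but each reached that minimum through SAH alone. In neuron-like nuclei *Mrgpra6* had 1 UMI in Normal and 80 in SAH, and *Mrgpra9* had 6 and 70. Nothing is therefore read from their place among these genes. Whether the UMIs in neurons come from free RNA, from mixed droplets or from the neurons was not tested.

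Both genes were found in the same nucleus more often than the product of their shares. In the SAH oligodendrocyte-like class 72 nuclei had both, 233 had *Mrgpra6* alone, 244 had *Mrgpra9* alone and 3021 had neither. The product of the 2 shares came to 27.0 nuclei, and to 32.2 nuclei when it was taken within each depth group. The number seen was 2.24 times that second figure (1.75 to 2.82). After thinning to 1000 UMIs, 12 nuclei had both where the product of the shares was 4.98. Seen from each gene, 23.6% of nuclei with *Mrgpra6* also had *Mrgpra9*, and 22.8% of nuclei with *Mrgpra9* also had *Mrgpra6*. In Normal 3 nuclei had each gene and 0 had both. Whether shared reads between the copies add to the nuclei with both was not tested.

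**Figure D2:**
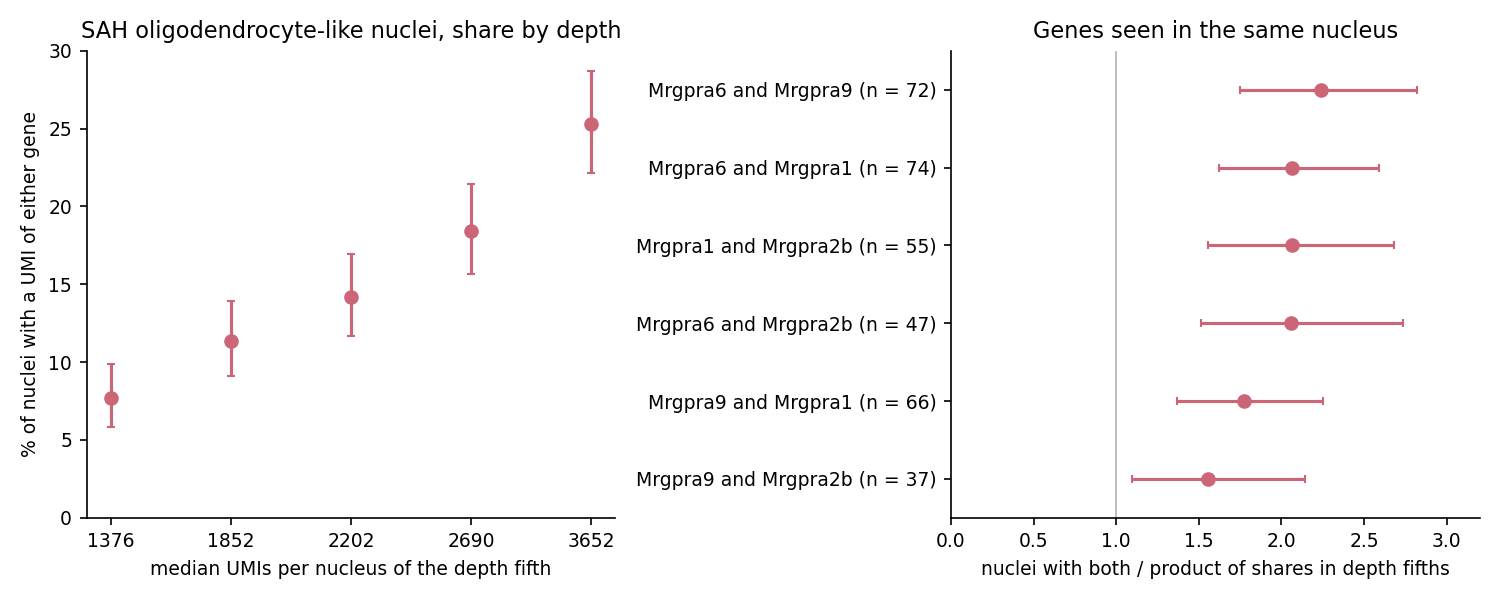
Left, share of SAH oligodendrocyte-like nuclei with a UMI of Mrgpra6 or Mrgpra9 in 5 depth groups, in % with exact 95% binomial intervals, going from 7.68% to 25.3%. Right, for the pairs of Mrgpra genes seen together most often, the number of SAH oligodendrocyte-like nuclei with both (n) over the product of shares within depth groups, with exact 95% Poisson intervals, where 1 marks no excess and Mrgpra6 with Mrgpra9 stands at 2.24. Pairs seen together in fewer nuclei are not shown, and their ratios include higher and lower ones.

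Further copies of the same gene run were also higher in SAH. Next to the members on the same strand lie *Mrgpra1*, which responds to bilirubin, *Mrgpra2a* and *Mrgpra2b*, which are known from neutrophils, and *Mrgpra3*, the chloroquine receptor of itch neurons. *Mrgpra1* held 9 UMIs in Normal (2.39 CPM) and 451 in SAH (51.8 CPM; 47.1 to 56.8), and its log2 ratio was 4.44 (3.50 to 5.57). *Mrgpra2b* held 8 UMIs in Normal (2.13 CPM) and 273 in SAH (31.3 CPM; 27.7 to 35.3), and its log2 ratio was 3.88 (2.88 to 5.11). *Mrgpra2a* held 0 UMIs in Normal and 43 in SAH (4.94 CPM), which is 6.19-fold the level of a floor of 3 counts over the Normal class. The interval of its log2 ratio had a lower end of 2.27. *Mrgpra3* held 0 UMIs in Normal and 9 in SAH, and the interval of its log2 ratio includes no difference, with a lower end of −0.23. *Mrgpra2a* and *Mrgpra2b* differ at only 2 of 993 coding bases and share 75.9% of the 91-base windows of the *Mrgpra2a* transcript, so the split between them is uncertain. Per kb of gene, introns included, the SAH levels were 2.08 CPM for *Mrgpra6*, 2.34 for *Mrgpra9*, 2.67 for *Mrgpra1*, 0.482 for *Mrgpra2b*, 0.191 for *Mrgpra2a* and 0.0832 for *Mrgpra3*. As counted, the first 3 genes of the run stood above the next 3 on this scale. How far reads that match both *Mrgpra2a* and *Mrgpra2b* were left uncounted was not tested, so the place of these 2 genes is uncertain. The scale depends on the annotated span, which is 65.1 kb for *Mrgpra2b*, while the intron of its longest transcript is 24.5 kb.

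The rest of the family was near or at 0 in oligodendrocyte-like nuclei. Of the 20 *Mrgpr* genes counted, 4 passed the minimum of 50 UMIs, and they are the 4 with ratios given above. *Mrgpra4*, 777 kb from the start of *Mrgpra6*, had 0 UMIs in both libraries, as had *Mrgprb2* and *Mrgprd* in these nuclei. *Mrgprx1*, the receptor formerly named *Mrgprc11*, had 0 UMIs in Normal and 2 in SAH. *Mrgpre* was seen mainly in neurons, with 292 UMIs (2.80 CPM) in Normal and 235 (1.502 CPM) in SAH neuron-like nuclei, and had 2 and 4 UMIs in the oligodendrocyte-like class.

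Of the 50 genes annotated within 500 kb of either member, 27 were in the feature table and 13 had at least 50 UMIs in oligodendrocyte-like nuclei. At least 2-fold higher in SAH were 4 of the 13, against 8.2% of all genes, and 1 was at least 2-fold lower. The 4 are *Mrgpra* genes, 2 of them the members chosen by this ratio, and all 4 reached the minimum of 50 UMIs through SAH alone, with 3 to 9 UMIs in Normal, so nothing is read from that count. The 9 genes that are not *Mrgpra* genes lay between −1.41 and 0.05 on the log2 scale with a median of −0.29, where the median over the 11467 genes was −0.05. The lowest was *Ldha*, which encodes a subunit of lactate dehydrogenase, at −1.41 (−2.05 to −0.77). *Ptpn5*, which encodes the phosphatase STEP and is the nearest of the 9 to *Mrgpra6*, was at 17.5 CPM in the Normal and 17.1 CPM in the SAH nuclei, with a log2 ratio of −0.04 (−0.46 to 0.40).

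**Figure D3:**
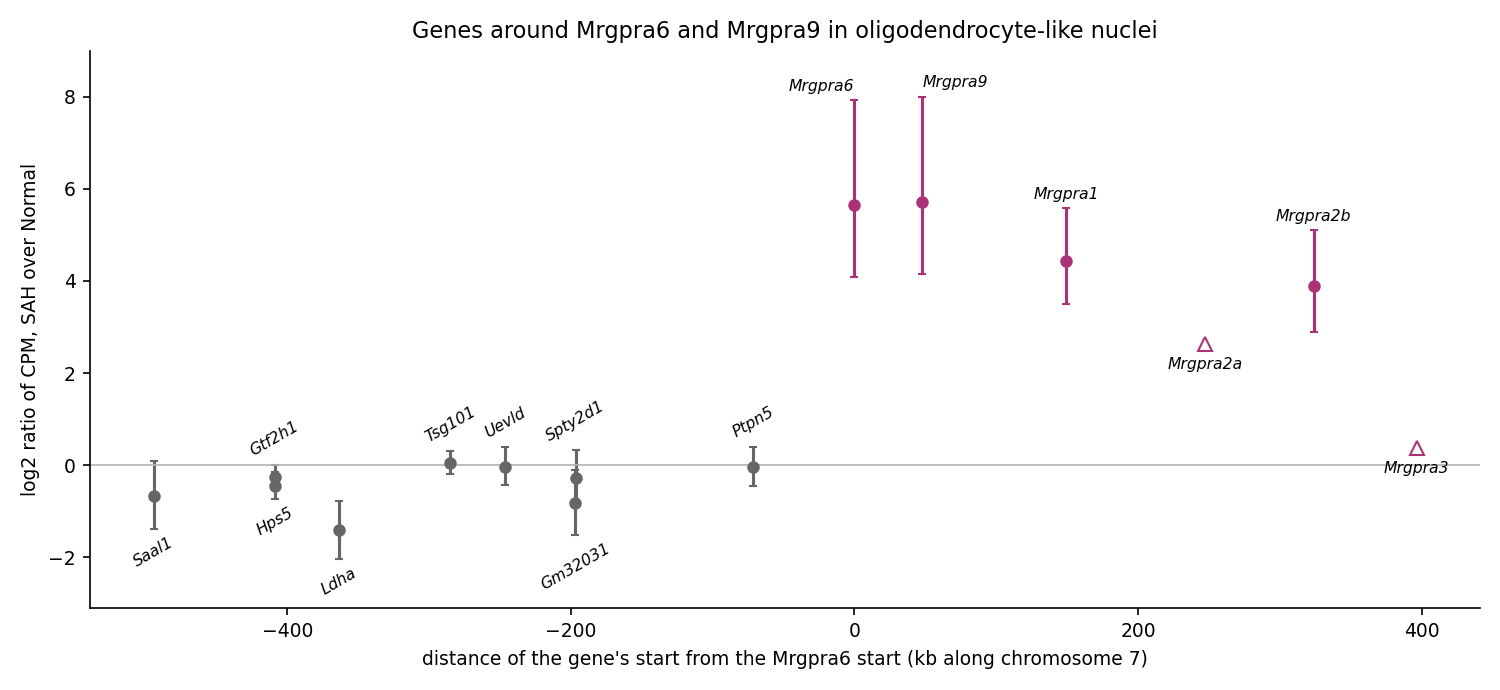
Log2 ratio of CPM, SAH over Normal, in oligodendrocyte-like nuclei for the 13 genes around Mrgpra6 and Mrgpra9 with at least 50 UMIs, by the distance in kb between gene starts. Purple marks Mrgpra genes and grey the other genes, and bars are exact 95% intervals. The open triangles of Mrgpra2a and Mrgpra3 mark the ratio against a floor of 3 Normal counts and are not ends of an interval. The exact intervals start at 2.27 for Mrgpra2a and at −0.23 for Mrgpra3, which includes no difference. The 4 purple dots lie between 3.88 and 5.72 and the 9 grey dots between −1.41 and 0.05.

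Taking the 6 genes of the run together, 948 SAH oligodendrocyte-like nuclei (26.6%; 25.1 to 28.0) had a UMI of at least 1 of them, against 22 Normal nuclei (1.26%; 0.790 to 1.90). At least 2 of the 6 genes were seen in 251 SAH nuclei (7.03%; 6.21 to 7.92) and in 0 Normal nuclei, where 3 counts would be 0.172% and the exact interval reaches 0.211%. With only 22 Normal nuclei holding any of the genes, a nucleus with 2 of them would be rare in any case. The 0 therefore says nothing on whether the genes occur together in Normal. The most genes seen in 1 nucleus was 5, in a single SAH nucleus. Within depth groups the members were seen with *Mrgpra1* in 74 nuclei for *Mrgpra6*, 2.06 times the product of shares (1.62 to 2.59), and in 66 nuclei for *Mrgpra9*, 1.77 times (1.37 to 2.25). With *Mrgpra2b* they were seen in 47 nuclei for *Mrgpra6*, 2.06 times (1.51 to 2.73), and in 37 nuclei for *Mrgpra9*, 1.56 times (1.095 to 2.14). All 4 intervals overlap that of *Mrgpra6* with *Mrgpra9*.

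**Figure D4:**
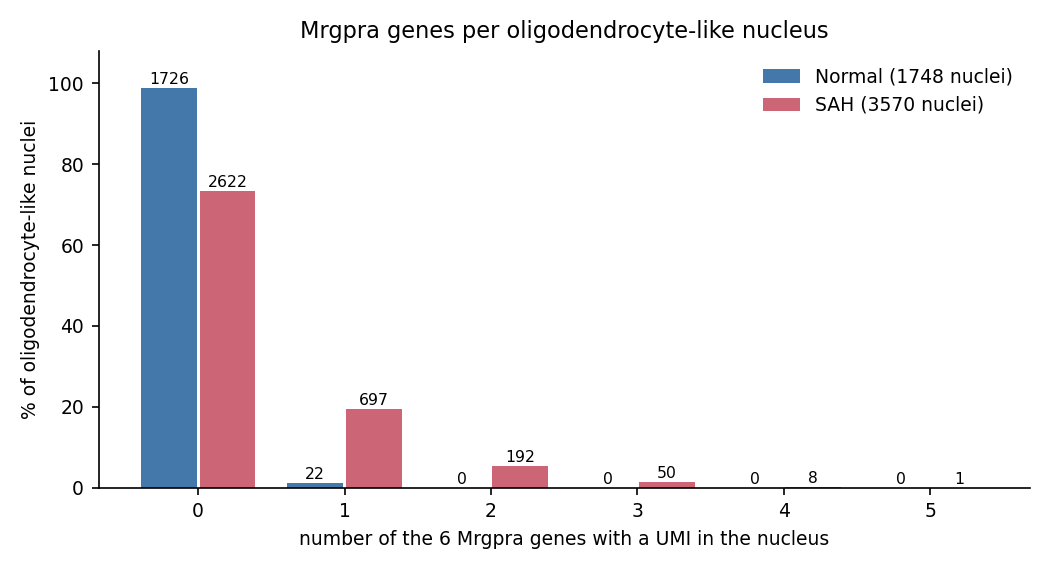
Share of oligodendrocyte-like nuclei, in %, by how many of the 6 Mrgpra genes had a UMI, for Normal (blue, 1748 nuclei) and SAH (red, 3570 nuclei), with the number of nuclei above each bar. In SAH 697 nuclei had 1 gene and 251 had 2 or more, in Normal 22 and 0.

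Because members of a gene run that appear together may share upstream sequence, the bases before the starts of *Mrgpra9* and *Mrgpra1* are shown. They are the 250 bases upstream of the RefSeq starts in GRCm38.p6, both on the minus strand, at chr7:47252880-47253129 and chr7:47354241-47354490, read 5′ to 3′. Capitals mark the longest exact run that the pair shared, 37 bases, which ends 128 bases before the start of *Mrgpra9* and 183 bases before that of *Mrgpra1*.

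Mrgpra9: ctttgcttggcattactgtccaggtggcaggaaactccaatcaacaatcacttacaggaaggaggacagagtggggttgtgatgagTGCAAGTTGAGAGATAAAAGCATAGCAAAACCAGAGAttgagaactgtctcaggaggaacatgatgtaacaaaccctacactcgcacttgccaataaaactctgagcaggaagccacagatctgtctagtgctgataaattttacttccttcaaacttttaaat
Mrgpra1: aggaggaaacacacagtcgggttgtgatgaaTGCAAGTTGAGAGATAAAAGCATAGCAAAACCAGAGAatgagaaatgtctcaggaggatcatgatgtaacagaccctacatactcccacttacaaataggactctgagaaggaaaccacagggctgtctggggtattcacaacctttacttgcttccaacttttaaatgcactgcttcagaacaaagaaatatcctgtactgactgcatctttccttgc

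Over the 300-base RefSeq windows around the starts, *Mrgpra9* and *Mrgpra1* were identical at 214 of 245 aligned bases (87.3%), *Mrgpra9* and *Mrgpra2b* at 229 of 283 (80.9%), and *Mrgpra2a* and *Mrgpra2b* at all 300. The window of *Mrgpra4* could not be aligned with them. The 37-base run was found in no other promoter of the table. That table has no entry for *Mrgpra6* or *Mrgpra3*, so the bases upstream of these genes were not compared. Letters of 8 motifs were searched on both strands of these 5 promoters and of all 32851. The TATA box (TATAAA, in 13.6% of all promoters), the hypoxia response motif (ACGTG, 19.6%), AP-1 (TGANTCA, 7.81%) and STAT (TTCNNNGAA, 8.30%) were in none of the 5. The E-box (CANNTG, 72.3%) was found 2 times in *Mrgpra9*, not in *Mrgpra1* and once in each of the others. The SOX motif (ACAAT, 31.0%) was found once in *Mrgpra9*, *Mrgpra2a* and *Mrgpra2b* and not in *Mrgpra1* or *Mrgpra4*. Letters from the glucocorticoid response element (AGAACA, 18.97%) were found once in *Mrgpra1*, *Mrgpra2a* and *Mrgpra2b* and not in *Mrgpra9* or *Mrgpra4*. The C/EBP motif (TTNNGNAA, 40.7%) was found 3 times in *Mrgpra2a* and in *Mrgpra2b*, 2 times in *Mrgpra4* and not in *Mrgpra9* or *Mrgpra1*. Such matches describe the sequence and are not binding sites.

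Within the SAH oligodendrocyte-like class both genes were found in every marker group. Nuclei were grouped by whether they had a UMI of *Il33*, a cytokine gene of mature oligodendrocytes, of *Opalin*, a membrane protein gene of myelinating oligodendrocytes, or of *Anln* or *Hapln2*, which encode a cytoskeletal protein of myelin and a protein of the node of Ranvier. The *Il33* group rests on that gene alone. *Ptgds* and *Grm3*, listed with it as markers of the same subtype, were not used for the grouping. Nuclei with *Il33* alone had the pair at 102 CPM (77.5 to 132; 261 nuclei), those with *Anln* or *Hapln2* alone at 79.9 CPM (71.0 to 89.6; 1508 nuclei) and those with *Opalin* alone at 46.8 CPM (32.8 to 64.8; 245 nuclei). The 964 nuclei with markers of more than 1 of these groups were at 95.3 CPM (83.9 to 107.9) and the 592 with none of the 4 markers at 71.4 CPM (56.4 to 89.1), and these 2 groups held 250 and 78 of the 714 UMIs. Over the 3 groups with 1 kind of marker the order was the same for each gene, from 52.8 to 39.7 and 28.6 CPM for *Mrgpra6* and from 49.3 to 40.2 and 18.2 CPM for *Mrgpra9*. For *Mrgpra6* the 3 intervals overlapped (35.6 to 75.4, 33.5 to 46.7 and 17.9 to 43.3), so no order is resolved. For *Mrgpra9* only that of *Opalin* (9.95 to 30.5) lay apart from the others (32.7 to 71.2 and 34.0 to 47.3). Shares of nuclei with a UMI of either gene, at 15.7%, 15.1% and 11.8%, also had overlapping intervals. For the sum, the *Il33* and the *Anln* or *Hapln2* groups had overlapping intervals, and the ratio of *Il33* over *Opalin* nuclei was 1.13 on the log2 scale (0.50 to 1.77). A clustering of whole profiles with the *Mrgpr* genes left out, started from these groups, gave 97.8 CPM (87.2 to 109) in the cluster started from *Anln* or *Hapln2*, 78.9 CPM (71.0 to 87.4) in that started from *Il33* and 44.2 CPM (31.9 to 59.8) in that started from *Opalin*. The cluster started from *Opalin* again had the lowest CPM, and the order of the others changed. Because the clusters were started from the marker groups, they are not an independent check of that place. The clusters also hold other nuclei than the groups, with 2105 in that started from *Il33*. The share of nuclei with a UMI was 13.3% in the clusters started from *Opalin* and from *Il33*, at median depths of 3224 and 2054 UMIs. In Normal the 5 groups held 0 to 4 UMIs of the pair, too few to compare.

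**Figure D5:**
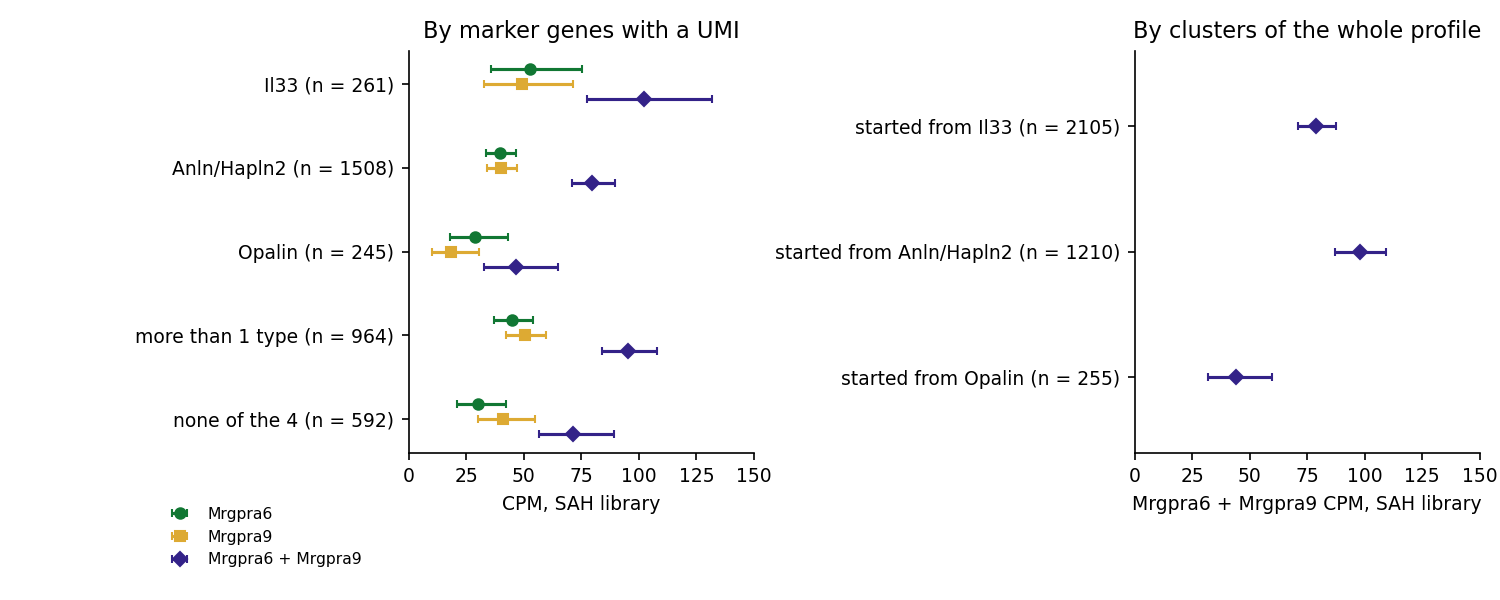
Levels in SAH oligodendrocyte-like nuclei, in CPM with exact 95% Poisson intervals. Left, Mrgpra6 (circles), Mrgpra9 (squares) and their sum (diamonds) by which marker genes had a UMI; right, the sum by clusters of the whole profile, where the cluster started from Opalin stands lowest at 44.2 CPM.

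Across single markers the summed level was higher with *Il33* than without it, at 105 against 72.3 CPM, a log2 ratio of 0.54 (0.32 to 0.76). It was higher with *Car2*, a carbonic anhydrase gene, by 0.47 (0.25 to 0.69), with *Klk6*, a protease gene of mature oligodendrocytes, by 0.64 (0.23 to 1.03), and with *Hapln2* by 0.30 (0.07 to 0.52). It was lower with *Opalin*, by −0.27 (−0.53 to −0.02), with *Grm3* by −0.40 (−0.69 to −0.09), and with *Ptgds*, the prostaglandin D synthase gene, by −0.74 (−1.095 to −0.37). *Grm3* and *Ptgds* were listed with *Il33* as markers of the same subtype but differed from it in direction. A UMI of *Ptgds* was found in 3343 nuclei (227 without) and of *Grm3* in 3082 (488 without), against 985 for *Il33* (2585 without). A UMI of *Ptgds* or *Grm3* thus marks most of the class and not a subtype, and nothing is read from their direction. For the other 4 of the 11 markers the interval includes no difference, at 0.17 (−0.05 to 0.39) for *Anln*, −0.08 (−0.51 to 0.33) for *Ctps*, 0.69 (−0.52 to 1.68) for *Hopx* and −0.19 (−0.71 to 0.30) for *S100b*. *Opalin* itself went from 417 CPM in Normal to 142 CPM in SAH and *Car2* from 942 to 350 CPM, so these groups are not the same share of the class in the libraries. Nuclei with and without a marker also differed in depth, at a median of 2337 and 2156 UMIs for *Il33* and of 2519 and 2142 UMIs for *Opalin*.

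The nuclei with a UMI of either gene carried more of a small set of other transcripts. The 549 nuclei with a UMI were compared with the 3021 without, at a median depth of 2576 and 2154 UMIs. Of 5787 genes with at least 200 UMIs in the SAH class, members left out, 12 (0.207%) were at least 2-fold higher in the nuclei with a UMI. Highest was *Rgs20*, a regulator of G protein signalling that acts on Gi-class subunits, at 107.6 against 27.4 CPM, a log2 ratio of 1.97 (1.67 to 2.28). Next came *Pdzrn4*, a ubiquitin ligase gene of the PDZ and RING finger class, at 1.39 (1.24 to 1.55), and *Rnf125*, another ubiquitin ligase gene, at 1.38 (0.94 to 1.80). *Mrgpra2b* followed at 1.35 (0.97 to 1.71) and *Mrgpra1*, 6th in this order, at 1.20 (0.91 to 1.49). *Kit*, the stem cell factor receptor gene, was at 1.23 (0.90 to 1.55), *Rasgef1c* at 1.18, *A530053G22Rik* at 1.08, *Pros1*, the gene of protein S, at 1.04 and *Sdk1*, an adhesion gene, at 1.03. Of these 8 other genes, *Rasgef1c* (3.46 to 42.3 CPM), *Rnf125* (3.19 to 23.0), *Pdzrn4* (31.9 to 168), *Pros1* (9.57 to 50.2), *Rgs20* (13.0 to 41.7) and *A530053G22Rik* (14.1 to 36.9) were also at least 2-fold higher in the SAH class than in Normal, and *Kit* (44.7 to 42.3) and *Sdk1* (22.1 to 29.5) were not. Of all genes with at least 50 UMIs in the class, 8.2% were at least 2-fold higher in SAH. The 8 genes passed a minimum set on SAH UMIs alone, so nothing is read from how many of them were higher. *Rgs20*, *Pdzrn4* and *Kit* were also among the leading genes of the cluster started from *Il33*, and *A530053G22Rik* among those of the cluster started from *Anln* or *Hapln2*. These genes are thus not particular to nuclei with a UMI of the pair, and how far they follow the subtypes was not tested. The summed oligodendrocyte markers did not separate the nuclei, at 170.7 per 10000 with and 171.2 without a UMI, and those of the neuron list were at 15.0 and 19.1 per 10000.

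Over the 8 named classes of both libraries, which give 16 points that share library and depth, the levels of *Mrgpra6* and *Mrgpra9* had a Pearson r of 0.88 on the log2(CPM + 1) scale. Among 7213 other genes the summed level was most like that of *Mrgpra1* (r = 0.90) and *Mrgpra2b* (r = 0.89), followed by *Gm50323* and *BC051408* (both r = 0.87). This describes where the genes were seen and rests largely on the SAH oligodendrocyte-like point. The SAH precursor-like point also enters these values, with 1 UMI of *Mrgpra6* (4.98 CPM) and 0 of *Mrgpra9* in 43 nuclei.

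The genes through which such receptors signal were present in the oligodendrocyte-like class and differed between the libraries in both directions. Of 24 signalling genes 17 had at least 50 UMIs, 2 were at least 2-fold higher in SAH and 0 at least 2-fold lower, where 8.2% and 6.08% of all genes were, with a median log2 ratio of −0.12 against −0.05 over all genes. The 17 ranged from −0.89 for *Grk2*, a receptor kinase gene, to 1.95. The G protein gene *Gnaq* was at 303 CPM in Normal and 356 CPM in SAH, and *Gnai1* at 271 and 165 CPM, a log2 ratio of −0.71 (−0.83 to −0.60). *Gnao1*, another G protein gene, was at 699.5 and 1281 CPM, with a log2 ratio of 0.87 (0.81 to 0.93). *Itpr2*, an IP3 receptor gene that releases calcium from internal stores, was at 21.3 and 82.3 CPM, a log2 ratio of 1.95 (1.62 to 2.30), and the arrestin gene *Arrb1* at 4.52 and 11.3 CPM, a log2 ratio of 1.32 (0.56 to 2.15). Of the channel genes these receptors open, *Trpa1* had 2 UMIs in Normal and 0 in SAH, and *Trpv1* 0 and 1.

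Of 7 genes for peptides that act on *Mrgpr* receptors 3 had at least 50 UMIs, and 1, *Tac1* (substance P), was at least 2-fold lower, where 6.08% of all genes were, at a log2 ratio of −1.38 (−1.92 to −0.84). *Penk*, the enkephalin precursor whose products include such peptides, was at 10.4 and 5.51 CPM. Of 4 genes for the breakdown of haem to bilirubin 2 had at least 50 UMIs and neither differed by 2-fold. *Hmox2* was at 92.3 and 94.0 CPM and *Blvra* at 18.6 and 18.03 CPM, and the inducible *Hmox1* had 1 and 4 UMIs. Defining genes of other cells in which these receptors are known were nearly absent from the class. None of the 9 sensory neuron, 7 mast cell and 8 neutrophil genes reached 50 UMIs. The mast cell genes summed to 1 UMI in Normal and 0 in SAH with all 7 at 0 in SAH, the neutrophil genes to 7 and 19 UMIs, and the sensory neuron genes to 14 and 23, with *Scn11a* and *Tlx3* at 0 in both libraries. The 5 erythrocyte genes summed to 26.1 CPM in Normal and 21.4 CPM in SAH. Of the 3 that passed the minimum 1 was at least 2-fold higher and 1 at least 2-fold lower, where 8.2% and 6.08% of all genes were. *Alas2*, the erythroid enzyme of haem synthesis, was at 0.798 and 11.3 CPM, from 3 and 98 UMIs, so it passed the minimum through SAH alone. Over all nuclei kept it had 1056 and 6344 UMIs, so its higher count in SAH was not particular to this class. *Hbb-bs*, a beta globin gene, was at 13.0 and 3.67 CPM. Their part in the levels of *Mrgpra6* and *Mrgpra9* was not tested.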

How the data were processed

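The study's single-nucleus libraries were made by the authors from frozen tissue with 10x Genomics 3′ chemistry, aligned to mm10 with intronic reads counted, and deposited as raw UMI counts per gene and nucleus. The file header names Cell Ranger 6.1.2 and the submitters' processing notes 5.0.0. Normal held 12204 nuclei with 114970719 UMIs and SAH 18209 nuclei with 172604358 UMIs, and 78 barcodes occurred in both. These counts do not match the study, which reports more sham than SAH nuclei. Its number of sham nuclei is also above that of the Normal library before any filter. The reason was not tested, and every comparison here rests on the group labels as given. Nuclei with 300 to 7000 genes, at most 100000 UMIs, under 10% mitochondrial and under 3% haemoglobin UMIs were kept, which removed 71 and 29.

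Nuclei were named where their marker UMIs per 10000 reached 50 (oligodendrocyte, 12 markers), 100 (precursor), 60 (astrocyte), 40 (microglia), 15 (vascular) or 80 (neuron). The cuts were set after the counts had been seen. Nuclei over more than 1 cut, which include doublets, were set aside. No doublet caller was used in the values of the text, except where Scrublet is named. A neuron-like nucleus was excitatory or inhibitory where that list was at least 2 times the other. UMIs were summed per class and library and divided by all UMIs of the class (CPM). Sums carry exact Poisson, shares exact binomial and ratios exact conditional binomial intervals of 95%, and a count of 0 a floor of 3 counts. These cover counting error only, so depth limits low classes. No test across nuclei was run, since nuclei of 1 library are not replicates.

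Genes named in the text are the members, all *Mrgpr* genes, genes within 500 kb, the gene lists and the 10 genes most like the pair by each measure, the first few of which are given for levels over classes. *Trpa1*, *Trpv1*, *Hmox1*, *Scn11a* and *Tlx3*, under the minimum of 50 UMIs, were named after their values had been seen. Members and lists were chosen with earlier results of these data known. Coordinates are of GENCODE vM21 (GRCm38), promoters of the RefSeq table, in which 5 of the 7 *Mrgpra* genes matched. Transcripts were aligned globally with free ends in Biopython. Tools were Python 3.11.15, scipy 1.17.1 and scanpy 1.11.5 (Scrublet, alternatives only). The ratios, the naming and the counts of nuclei with both genes were tested on simulated data. Alternatives were other filters, cuts, naming by whole profile, mixed nuclei kept, Scrublet, thinning, centring, an average with 1 added and other UMI minimums. The exclusion of barcodes found in both libraries was added after the data had been seen.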

Additional observations from a re-analysis of the deposited data

Results flagged for a closer look

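Signal of the pair was also found in SAH nuclei that entered no comparison. The 398 SAH nuclei with markers of more than 1 cell type held 35 UMIs of *Mrgpra6* and *Mrgpra9*, at 15.4 CPM (10.7 to 21.4), and the 207 such Normal nuclei held 0. The 293 SAH nuclei that reached no marker cut held 20 UMIs, at 16.02 CPM (9.78 to 24.7), and the 125 such Normal nuclei held 0. Both were picked out because they lie outside the classes compared and above the Normal level. Of the first group 164 nuclei lay between 0.5 and 2 times the oligodendrocyte cut, and of the second 48. What these nuclei are was not tested.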

How the results depend on the processing

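The log2 ratios of SAH over Normal for *Mrgpra6*, *Mrgpra9* and their sum lay within the intervals given under 10 of 11 alternatives each. The exception was the average of counts per 10000 with 1 added, which gave 0.48, 0.49 and 0.84, where the SAH levels are under 1 per 10000 UMIs and so below the number added. The ratio of oligodendrocyte-like over other named nuclei in SAH (6.42) was 6.91 with the cut at 0.5 times the marker share, 6.73 with the cut doubled, 7.63 with the highest Scrublet scores removed and 5.95 after thinning to 1000 UMIs. The share of SAH oligodendrocyte-like nuclei with a UMI was 7.30% and the nuclei with both genes 12 after thinning, which leaves fewer UMIs, and both stayed within their counting intervals under the other 8 alternatives. The percent of genes at least 2-fold higher in SAH (8.2%) was 11.1% with a minimum of 20 UMIs, 5.84% with a minimum of 200 UMIs and 7.49% with the cut doubled. The cause was not tested for the cuts. The ratio of *Il33* over *Opalin* nuclei lay between 0.83 and 1.27 under 10 alternatives. The lowest value compares the clusters started from these groups, with 2105 and 255 nuclei, where the groups held 261 and 245. It is thus not the same comparison. No result changed sign, and leaving out the shared barcodes moved none beyond its interval. Leaving out a replicate was not possible with 1 library per condition. No paired analysis was possible because each condition had 1 library.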
